A study of Mus musculus with 278 samples.

Results

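The brightest quartile (Q1) of Id4-EGFP spermatogonia comprised 74 of the 278 single cells profiled from testes of 6-day-old mice. Its cells were taken by their label of EGFP epifluorescence quartile, which came from images of each captured cell and not from its RNA. The pooled background was the other 204 cells, of which 70 were in Q2, 74 in Q3 and 60 in Q4, the dimmest. All groups came from untreated mice that carry the ID4-EGFP reporter, in which EGFP follows the Id4 gene, and every cell had been sorted as EGFP-positive, so no EGFP-negative cells served as a control. Each of the 5 preparations pooled testes of several pups, and the labels do not say whether they came from separate litters. They gave 8, 16, 11, 20 and 19 Q1 cells (preparations 1 to 5), beside 18, 46, 26, 55 and 59 cells of the other quartiles.

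Spermatogonial stem cells are the undifferentiated germ cells that both renew themselves and found the lineage leading to sperm. Sertoli cells supply them with GDNF, which binds GFRA1 and signals through the RET kinase, and with FGF, which acts through the ERK pathway, and both maintain transcription factors such as ETV5 and BCL6B. ID4 is one of the inhibitor of DNA binding proteins, which pair with E proteins and keep them from their DNA site, the E-box. Progenitors later express Neurog3 and Sox3, and differentiating spermatogonia take up KIT and STRA8 under retinoic acid. At this age stem cells, progenitors and early differentiating cells occur side by side.

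The germ cell identity of Q1 cells was checked first. Ddx4, Dazl, Mael and Uchl1, which are expressed throughout the early male germ line, reached an FPKM of 1 or more in all 74 Q1 cells (100%, exact binomial 95% interval from 95.1%, which covers counting error only). FPKM counts the fragments per kilobase of a transcript relative to all fragments mapped in the cell, and a gene is called detected here from an FPKM of 1 upward. Amh, Amhr2, Fshr and Cldn11, which define Sertoli cells, were listed at 0 in every Q1 cell, as were the Leydig genes Cyp11a1, Cyp17a1, Hsd3b1, Insl3, Nr5a1 and Lhcgr. The remaining Leydig list gene, Star, was in 20.3% of Q1 and 19.6% of other cells. If cells are taken as independent, a count of 0 in 74 allows a share of up to 4.86% (exact binomial 95% limit), which covers counting error only and limits cells with a listed value, not cells expressing the gene. Of 12 Sertoli list genes a Q1 cell had at most 2. None was detected in 43 of 74 Q1 cells and 134 of 204 other cells. The 2 tested, Rhox5 and Clu, were in 13.5% and 14.9% of Q1 cells and 14.7% and 8.33% of the others. Sox9 was in 10.8% of Q1 and 6.37% of other cells, and Wt1 in 4.05% and 6.86%. Q1 cells had at most 2 of 6 peritubular myoid genes, 3 of 6 endothelial, 2 of 6 macrophage, 1 of 4 erythroid and 1 of 7 Leydig genes. Cells with none of a list numbered 57 of 74 in Q1 and 179 of 204 in the background for myoid genes. For endothelial genes they were 22 and 93, for macrophage 59 and 172, for erythroid 67 and 191 and for Leydig 59 and 161. Of the myoid genes, Tagln was in 14.9% of Q1 and 6.86% of other cells, Des in 8.11% and 2.94% and Acta2 in 0% and 1.47%. The summed Sertoli list had a median of 0 FPKM in both groups and reached 386 in Q1 and 984 in the background, where 1 cell or more had 8 of its genes. What part such transcripts have in the differences below was not tested.

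Id4 lies on chromosome 13 at 48261228-48266026 (plus strand, mm10/GRCm38, GENCODE M21) and Hlf on chromosome 11 at 90336536-90390895 (minus strand). The 250 bases before the RefSeq start of each gene are shown because Id4 is the gene the reporter follows and Hlf had the smallest p of the genes tested in the comparison of Q1 with the other quartiles. E-boxes (CANNTG, which reads the same on both strands) are in capitals.
Id4 chr13:48260866-48261115 (+): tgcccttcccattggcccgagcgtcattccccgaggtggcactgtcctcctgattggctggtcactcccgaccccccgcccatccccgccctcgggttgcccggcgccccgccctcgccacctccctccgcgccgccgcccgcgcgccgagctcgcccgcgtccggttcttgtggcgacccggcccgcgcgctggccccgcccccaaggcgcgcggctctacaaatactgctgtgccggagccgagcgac
Hlf chr11:90390918-90391167 (-): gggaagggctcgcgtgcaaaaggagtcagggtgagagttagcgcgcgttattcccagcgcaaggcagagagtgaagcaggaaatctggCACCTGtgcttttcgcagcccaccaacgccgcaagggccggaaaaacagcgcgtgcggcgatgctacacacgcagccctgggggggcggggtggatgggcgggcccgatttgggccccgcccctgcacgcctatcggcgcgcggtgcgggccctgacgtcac
The Id4 window held 0 E-boxes and the Hlf window 1, against 66.2% of 32851 RefSeq windows (GRCm38.p6) with at least 1. Among the 10035 windows of tested genes this share was 55.96%. The windows of Gfra1, Tcl1 and Etv5 (first of 2) held 3, 1 and 2. TTANGTAA, which is close to the site that HLF and its relatives bind, was searched on both strands and overlaps no E-box pattern. It was in none of the windows of the 5 genes, in 2.06% of all windows and in 1.355% of those of tested genes. These matches describe letters only.

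The markers Id4, Gfra1, Etv5, Tcl1 and Hlf averaged higher in Q1 than in the background to different degrees. None had an adjusted p under 0.05 in limma. These markers were proposed with earlier results of these data known, so their direction is not independent evidence. Id4 averaged 19.9, 7.11, 9.54, 19.1 and 31.2 FPKM over Q1 cells of preparations 1 to 5, against 1.44, 8.96, 8.55, 8.64 and 3.77 over the other cells. The Q1 mean was thus the higher in 4 of 5 preparations and the lower in preparation 2, and the ranges of the 2 groups overlapped. The means over preparations were 17.4 ± 9.57 and 6.27 ± 3.45 FPKM (SD, n = 5). Id4 was detected in 59.5% of Q1 cells (36.4% to 75% by preparation) and 35.3% of the others. Within the background it was in 44.3% of Q2, 33.8% of Q3 and 26.7% of Q4 cells. On the log2(FPKM + 1) scale the fitted difference between Q1 and the mean of the other quartiles was 1.21 ± 0.32 (SE), with an adjusted p of 0.308 in limma, where p-values were adjusted over all 10452 genes tested. In 29 of 74 Q1 cells Id4 was listed at 0, which does not show that the gene was silent there. GENCODE places exons of A330033J07Rik and Gm49291 on the opposite strand over Id4, and whether strand was used in counting is not given, so reads of those genes cannot be told apart from those of Id4.

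Hlf, a PAR bZIP transcription factor, had the smallest p of the 10452 genes tested. Without the filter on low values, Rln1 (limma adjusted p 0.0095) and Eomes (0.0173), both higher in Q1, had smaller ones and that of Hlf was 0.154. Its Q1 means were 9.63, 9.10, 6.94, 7.56 and 14.5 FPKM over the 5 preparations, and its background means 5.28, 3.78, 5.38, 2.09 and 2.85. Every Q1 mean lay above every pooled background mean. By single quartile the preparation means of Q3, 1.78 to 9.80 FPKM, overlapped those of Q1, while Q2 reached 6.44 and Q4 3.20. The overall means were 9.54 ± 2.96 and 3.88 ± 1.46 FPKM (SD, n = 5), and Hlf was detected in 71.6% of Q1 cells against 37.1% of Q2, 41.9% of Q3 and 23.3% of Q4. The log2 difference was 1.35 ± 0.23 (SE; 0.68 to 1.91 across preparations), with a limma adjusted p of 0.0694, and without preparations 1 to 5 in turn it was 0.258, 0.123, 0.0146, 0.593 and 0.636. It thus passed the threshold of 0.05 without preparation 3 and not without any of the others.

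Gfra1, the GDNF co-receptor, is the surface gene most used to mark undifferentiated spermatogonia. It averaged 80.9, 23.4, 57.4, 39.4 and 49.6 FPKM in Q1 and 35.9, 36.4, 65.2, 14.7 and 27.6 in the background. Preparation 2 had the lowest Q1 mean and, with preparation 3, a background mean above it, so the groups overlapped. It was detected in 86.5% of Q1 cells (75% to 100% by preparation) and 65.2% of the others (78.6% of Q2, 68.9% of Q3 and 45% of Q4), with a log2 difference of 1.22 ± 0.34 and a limma adjusted p of 0.333. Gm16277 overlaps it on the opposite strand.

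Etv5, a GDNF- and FGF-responsive ETS factor, averaged 59.6, 61, 77.4, 37.0 and 40.6 FPKM in Q1 and 56.4, 40.7, 54.7, 28.7 and 38.4 in the background. Q1 was the higher in each preparation by this mean and in 4 of 5 on the log2 scale, where the difference was 1.00 ± 0.31 (limma adjusted p 0.380). Tcl1, a co-activator of the AKT kinase and the most abundant of the 5, averaged 287, 172, 134, 191 and 235 FPKM in Q1 and 142, 150, 176, 137 and 77.5 in the background. Its log2 difference was 1.45 ± 0.38 (limma adjusted p 0.308), above 0 in 5 of 5 preparations, although the FPKM mean of preparation 3 was the lower in Q1. Etv5 was in 94.6% of Q1 cells and almost the same share of Q2 (94.3%), against 74.3% of Q3 and 58.3% of Q4. Tcl1 was likewise in 90.5% of Q1, 88.6% of Q2, 81.1% of Q3 and 66.7% of Q4 cells. Without preparation 5, in which it was 3.07, the log2 difference of Tcl1 was 0.86.

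**Figure D1:**
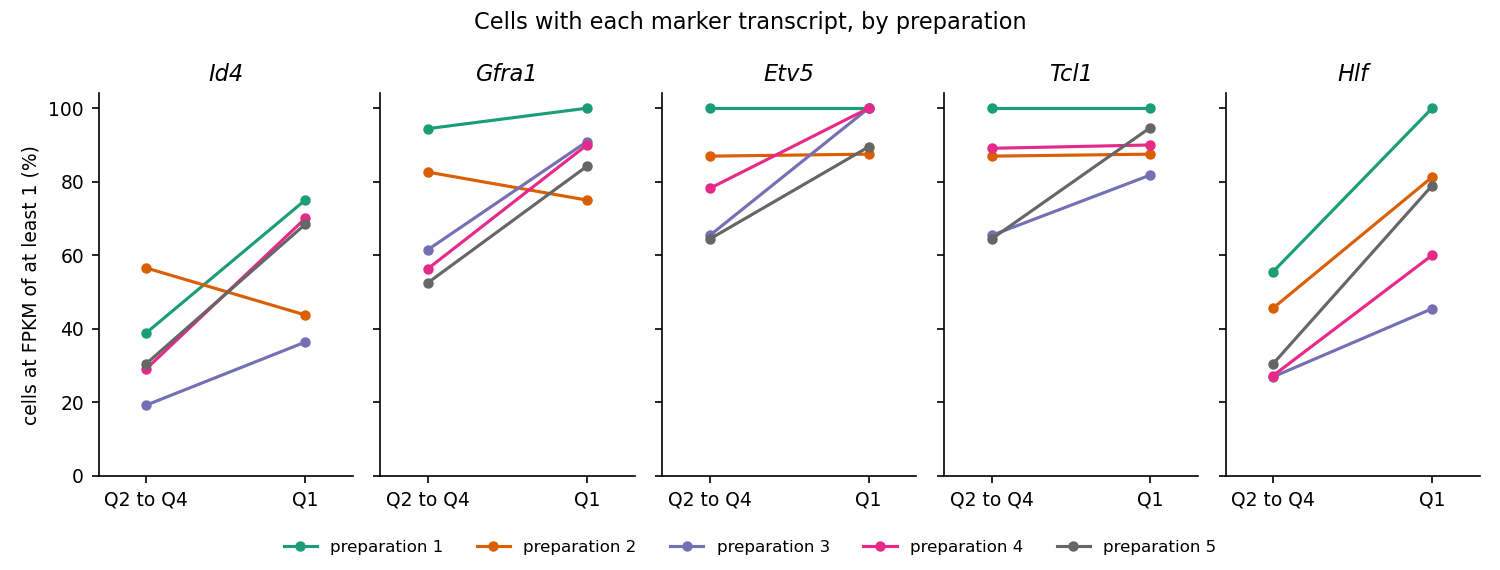
Percent of cells with each of the 5 markers at FPKM of at least 1 (y axis) in the pooled Q2 to Q4 cells and in Q1 (x axis); each colour is 1 preparation and each line joins the groups of that preparation. Shares of Hlf were higher in Q1 in every preparation, while those of Id4 and Gfra1 were lower in preparation 2.

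Most Q1 cells carried several of the markers at once. Of the 74 Q1 cells, 26 (35.1%) had all 5, 30 had 4, 13 had 3, 4 had 2, 1 had 1 and 0 had none, while of the other cells 12.7% had all 5 and 7.84% had none. By preparation a Q1 cell had 4.75, 3.75, 3.55, 4.10 and 4.16 of the 5 markers and another cell 3.89, 3.59, 2.38, 2.80 and 2.42. The difference was 1.04 ± 0.58 markers per cell (SD over preparations), above 0 in 5 of 5, with an exact sign-flip p of 0.063 (two-sided), the smallest that 5 preparations allow. Preparation 2 had the smallest difference, 0.163. Because the markers were proposed with earlier results of these data known, this test is not independent evidence. Q1 cells also had more detected genes of any kind, by 276 ± 264 (SD over preparations). What part this has in the marker count was not tested.

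**Figure D2:**
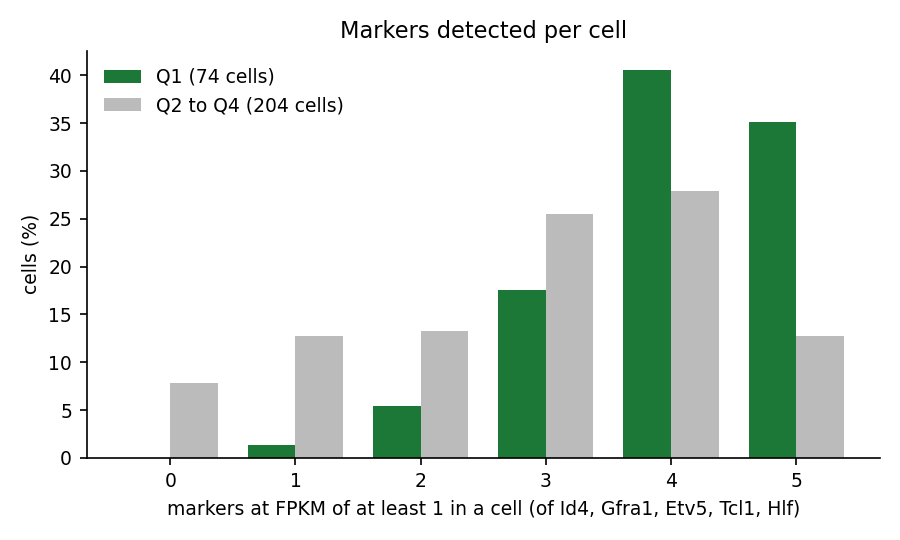
Percent of cells (y axis) by how many of the 5 markers were at FPKM of at least 1 in the cell (x axis); green bars are the 74 Q1 cells and grey bars the cells of Q2 to Q4, pooled over preparations. The Q1 bars are tallest at 4 and 5 markers, with 40.5% and 35.1% of cells.

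Q1 cells differed in which markers they combined. Every one of the 64 Q1 cells with Gfra1 also had Etv5, 61 of them had Tcl1 and 58 had Ret, the kinase that GFRA1 recruits. These genes were common in any case: of all 74 Q1 cells, 70 had Etv5, 67 Tcl1 and 66 Ret. Id4 and Hlf occurred together in 32 cells, Id4 alone in 12, Hlf alone in 21 and neither in 9. Within preparations the log2 levels of Gfra1 and Tcl1 correlated across Q1 cells with r = 0.41. Etv5 and Tcl1 had r = 0.34 and Gfra1 and Etv5 0.31, whereas Gfra1 and Ret had 0.06 and Id4 and Hlf 0.01. These values are across 74 cells that share libraries and depth and are given as a description. For the 5 markers, r with the number of detected genes in the cell lay between -0.16 and 0.13, and r with estimated fragments between -0.11 and 0.18.

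Over all genes, Q1 did not separate from the pooled background at the adjusted threshold. Of 10452 genes, 0 were called higher and 0 lower by limma at an adjusted p under 0.05 (0% in each direction). At an unadjusted p under 0.05 there were 616 higher (5.89%) and 130 lower (1.24%), the latter 227 without preparation 3. The median log2 difference of all genes was 0.07, with 60.6% of genes above 0. In the same preparations more genes were detected per Q1 cell, on average 7303, 7043, 4960, 6184 and 5978 in preparations 1 to 5 against 7080, 6918, 4216, 6030 and 5842. The difference of 276 ± 264 genes (SD) was above 0 in 5 of 5 preparations, with an exact sign-flip p of 0.063 (two-sided), and was 159 without preparation 3. Estimated fragments per cell differed by -4028 ± 36534 and were higher in Q1 in 3 of 5. With detected genes per cell as a covariate beside the preparation block, 331 genes were higher and 282 lower at unadjusted p under 0.05. What part detected genes have in the differences of single genes was otherwise not tested.

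Transcripts linked to later stages were common in the bright cells too. Kit, the receptor that marks differentiating spermatogonia, was detected in 58.1% of Q1 cells and 59.3% of the others, and 37 of 74 Q1 cells had both Gfra1 and Kit. Its mean was 19.7 ± 4.96 FPKM in Q1 and 23.5 ± 5.36 in the background (SD, n = 5). Stra8, a retinoic acid target needed for meiosis, was in 71.6% of Q1 and 77.9% of other cells, and 45 Q1 cells had it with Gfra1. Its Q1 means were 73.4, 57.8, 323, 96 and 85.6 FPKM, with preparation 3 far above the rest, and preparation 3 was also the highest in the background at 226. Of 9 tested genes of the differentiating list, 0 were at unadjusted p under 0.05 in either direction, against 5.89% of all genes higher and 1.24% lower, and their median log2 difference was -0.11 against 0.07 for all tested genes. Dnmt3b, a de novo DNA methyltransferase, came closest, at 28.3 ± 7.59 against 42.2 ± 9.91 FPKM (limma adjusted p 0.70).

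Progenitor genes were mixed. Neurog3, a helix-loop-helix factor of committed progenitors, was in 6 of 74 Q1 cells (8.11%) and 10.8% of the others. Upp1, uridine phosphorylase, averaged 30.1, 17.8, 51, 26 and 13.3 FPKM in Q1 against 39.5, 56.1, 44.3, 64.7 and 38.9, lower in 4 of 5 preparations, with a log2 difference of -1.02 ± 0.44 (limma adjusted p 0.66). Across Q1 cells within preparations, Upp1 and Gfra1 had r = -0.31. The other later-stage genes paired with Gfra1 lay nearer to no correlation, with r = -0.008 for Neurog3, -0.027 for Kit and -0.046 for Stra8. Lin28a, an RNA-binding protein that blocks let-7 maturation, was at 50.9 ± 18.2 FPKM in Q1 and 43.2 ± 5.73 in the background. Sox3 was in 28.4% of Q1 and 39.7% of other cells, and Sohlh1 in 91.9% and 90.2%. Among 8 tested progenitor genes, 2 were higher (Lin28a and Cdh4) and 1 lower (Upp1) in Q1 at unadjusted p under 0.05, against 5.89% higher and 1.24% lower of all genes.

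Among 23 tested stem cell associated genes, 10 were higher and 0 lower in Q1 at unadjusted p under 0.05, with a median log2 difference of 0.47 and 21 of 23 above 0. Over all genes 5.89% were higher and 1.24% lower, the median was 0.07 and 60.6% were above 0. The 10 were Id4, Gfra1, Etv5, Tcl1, Hlf, Ret, Bcl6b, Dusp6, Epha2 and Pou5f1, of which the first 5 are the markers. Markers and gene lists alike were chosen with earlier results of these data known. Counts of list members, here and for the other lists, are therefore not independent evidence. Ret averaged 26.5, 16.1, 27.7, 17.4 and 20.5 FPKM in Q1 against 16.5, 17.8, 10.7, 13.8 and 9.41, and was in 89.2% of Q1 and 70.1% of other cells (log2 difference 0.99 ± 0.29, limma adjusted p 0.35). Bcl6b, a repressor induced by GDNF, was at 19.3 ± 5.03 against 14.8 ± 5.77 FPKM. Pou5f1, the pluripotency factor OCT4, was in 39.2% and 28.4% of cells and Epha2, an ephrin receptor, in 24.3% and 9.8%. Other members of the list showed smaller differences. Nanos2, an RNA-binding repressor of differentiation, was in 18.9% of Q1 and 18.1% of other cells, at 10.2, 3.56, 7.10, 17.8 and 3.24 FPKM in Q1. Zbtb16, also called PLZF, was in 97.3% and 92.6%, and Cd9, a surface tetraspanin, averaged 252 ± 61.9 and 221 ± 43.6 FPKM. Eomes, a T-box factor, was under the 10% filter and so was not tested, but was detected in 20.3% of Q1 cells against 5.4%, at 1.52, 4.26, 0.90, 8.79 and 2.81 FPKM in Q1 and 0.105 to 0.574 FPKM in the background.

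GDNF and FGF act through surface receptors upstream of the ERK kinases. Of 8 tested receptor genes, 3 were higher (Gfra1, Ret and Sdc4) and 1 lower (Gfra3) in Q1 at unadjusted p under 0.05, with a median log2 difference of 0.18 against 0.07 for all genes. Gfra1 and Ret are also members of the stem cell list. Sdc4, a heparan sulfate proteoglycan that binds FGF, was among the most abundant genes, at 1412, 1727, 1234, 2393 and 2011 FPKM in Q1 and 1439, 1694, 1553, 2615 and 1486 in the background. Its FPKM means were thus almost the same (1755 ± 465 and 1757 ± 489), and its log2 difference of 0.30 ± 0.13 went with a narrower spread between Q1 cells, 0.73 against 1.31 on the log2 scale. Gfra3, the artemin co-receptor, averaged 1.15 ± 1.08 FPKM in Q1 and 6.06 ± 3.38 in the background. Of 14 tested ERK response genes, 7 were higher and 0 lower (Etv4, Etv5, Spry1, Spry4, Dusp6, Phlda1 and Ccnd1), with 14 of 14 differences above 0 and a median of 0.41. Of all genes 5.89% were higher and 60.6% had a difference above 0, and Etv5 and Dusp6 are also in the stem cell list. Spry1, a feedback inhibitor of receptor tyrosine kinases, averaged 5.17, 3.75, 12.1, 6.02 and 5.21 FPKM in Q1 against 1.91, 2.59, 2.57, 1.92 and 1.04 in the pooled background. These pooled ranges did not overlap (log2 difference 0.61 ± 0.16, limma adjusted p 0.31). Dusp6, an ERK phosphatase, had a lower FPKM mean in Q1 (49.6 ± 13.2 against 52.2 ± 15.6) but was in 90.5% of Q1 cells against 76.5%. Its log2 difference of 0.89 ± 0.32 therefore had the opposite sign to its FPKM difference.

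Immediate early genes, which cells switch on within minutes of stimulation or dissociation, included 4 higher (Egr1, Ier3, Dusp1 and Zfp36) and 0 lower of 15 tested, with a median of 0.30, against 5.89% higher, 1.24% lower and a median of 0.07 over all genes. Egr1 averaged 108, 105, 47.1, 88.2 and 98.8 FPKM in Q1 against 112, 107, 86.9, 66.8 and 57.4, higher in only 2 of 5 preparations by this mean although above 0 in 4 of 5 on the log2 scale. In the ID family Id3, which also blocks E proteins, was in 28.4% of Q1 and 16.2% of other cells, while Id1 and Id2 were in 9.5% and 4.1% of Q1 cells. The E protein genes Tcf3 and Tcf12 were at 12.6 ± 6.31 and 26.5 ± 11.9 FPKM in Q1, and 12.6 ± 5.90 and 25.7 ± 5.05 in the background.

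Lists of growth and metabolism genes are given beside the 5.89% of all genes that were higher and the 1.24% that were lower, and a share near those is no result about a list. Of 42 G1/S genes 5 were higher (Mcm5, Mcm4, Atad2 and Rrm2 among them) and 0 lower, with 35 of 42 differences above 0 and a median of 0.25. Rrm2, a subunit of ribonucleotide reductase, averaged 120 ± 42.4 FPKM in Q1 and 78 ± 16.7 in the background. Of 53 G2/M genes 1 was higher (Mki67, 26.6 ± 2.96 against 23.7 ± 2.67 FPKM) and 0 lower, with a median of 0.13. The TCA cycle list had 3 higher (Dlst, Dld and Pdha1) and 1 lower (Pdhb) of 23, and glycolysis 2 higher (Aldoc and Slc2a3) of 17. Of 18 meiotic prophase genes 1 was higher (Mei4), and of 8 DNA methylation genes 0 were at unadjusted p under 0.05. Of 86 cytosolic ribosomal protein genes 2 were higher (Rpl39 and Rpl3l) and 2 lower (Rps26 among them), with a median of -0.06. Of 80 tested nuclear genes of the respiratory chain 0 were higher and 2 lower (Cox4i1 and Uqcrc1). Among 22 pan germ cell genes Uchl1 alone was at unadjusted p under 0.05, at 412, 420, 342, 446 and 334 FPKM in Q1 against 486, 453, 438, 485 and 489, lower in 5 of 5. Among genes of other cell types Egfl7 was higher, in 54.1% of Q1 and 37.7% of other cells, while of the endothelial genes Cdh5 was in 5.41% and 6.37% and Kdr in 2.70% and 1.47%. Flt1 was in 20.3% and 16.2%, Pecam1 in 14.9% and 8.33% and Tek in 2.70% and 4.90% of these cells. What part endothelial transcripts have in the Egfl7 difference was not tested.

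The 15 genes with the smallest p among those higher in Q1 were Hlf, Dlst, Tmem59l, Rab4a, Amot, Nlrp4f, Capg, Rap1a, Cdipt, Sox13, Crygs, Tubg2, Abracl, Nefm and Aldh6a1, with limma adjusted p from 0.0694 to 0.239. Dlst, a subunit of the 2-oxoglutarate dehydrogenase complex, averaged 44.3, 23.5, 35, 29.1 and 41.9 FPKM in Q1 against 34.2, 27.4, 7.36, 9.03 and 11.3. Preparation 2 was the exception, and without it Dlst (log2 difference 1.84) and Id4 (1.68) both passed the threshold at an adjusted p of 0.0340 in limma. Without any other preparation neither passed: limma adjusted p was 0.258 to 0.717 for Dlst and 0.345 to 0.751 for Id4, whose log2 difference was 0.85 without preparation 5. Sox13, a SoxD transcription factor, averaged 16.4, 16.9, 15.4, 11.1 and 11.7 FPKM in Q1 and 8.32, 6.99, 4.39, 5.44 and 3.62 in the background. With Q2 to Q4 pooled the 2 ranges did not overlap, but the highest preparation mean of Q3 alone was 12.8 FPKM. Sox13 was in 68.9% of Q1 and 46.6% of other cells (57.1% of Q2). Rap1a, a small GTPase, was likewise without overlap against the pooled background, at 6.53 to 12.2 against 1.63 to 5.39 FPKM. Its highest preparation mean in Q2 alone was 6.87 FPKM. Rab4a, a GTPase of recycling endosomes, was in 40.5% of Q1 and 18.6% of other cells, although in preparation 3 its FPKM mean was lower in Q1 (4.64 against 14.4). Its mean over preparations was not lower in Q2 than in Q1 (14.4 ± 9.53 against 13.4 ± 6.43 FPKM), and its share of cells was 27.1% in Q2 and 8.33% in Q4. Amot, a junction protein that binds YAP, was at 16.3 ± 7.67 against 5.88 ± 2.70 FPKM, and Nefm, a neurofilament subunit, at 39.5 ± 20.5 against 24.5 ± 6.87. Capg, which caps actin filaments, averaged 116 ± 20.4 FPKM in Q1, 91.5 ± 34.5 in Q2 and 60.2 ± 33.2 in Q4, and was in 87.8% of Q1 and 88.6% of Q2 cells. Tmem59l was in 83.8% and 60.8% of cells, and Tubg2, a gamma-tubulin, in 67.6% and 49%. Aldh6a1, a mitochondrial dehydrogenase, rested on few cells: it was in 27% of Q1 cells, reached 432 FPKM in 1 cell and averaged 62.9 FPKM in preparation 3 but 2.23 in preparation 1. Exons of Nefl, Cdiptos, Gm17711 and Bbof1 overlap Nefm, Cdipt, Abracl and Aldh6a1 on the opposite strand.

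The 10 genes with the smallest p among those lower in Q1 were Fkbp9, Lhfpl2, Snora78, Emp2, 1600002K03Rik, Eif4ebp1, Agbl3, 9430016H08Rik, Hey1 and AU041133, with limma adjusted p from 0.271 to 0.492. Fkbp9, a prolyl isomerase of the endoplasmic reticulum, averaged 5.02, 7.58, 17.5, 12.8 and 3.77 FPKM in Q1 against 22.2, 26.8, 23.3, 22.4 and 19.2. Every pooled background mean exceeded every Q1 mean, and Fkbp9 was in 40.5% of Q1 and 61.3% of other cells. By single quartile the preparation means overlapped those of Q1 (3.77 to 17.5 FPKM), starting at 7.29 in Q2, 16.3 in Q3 and 12.3 in Q4. Eif4ebp1, a repressor of cap-dependent translation under mTOR, was in 100% of Q1 cells, at 262, 254, 109, 254 and 164 FPKM against 367, 266, 220, 369 and 246, lower in 5 of 5. Emp2, a tetraspan membrane protein, was in 3 of 74 Q1 cells (4.05%) and 21.6% of the others, and Hey1, a Notch target repressor, in 10.8% and 20.1%. Lhfpl2 was in 10.8% and 22.1%. Snora78 is a small nucleolar RNA, a class that polyA-based libraries and FPKM of short features measure poorly, and it was in 9.46% of Q1 cells.

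**Figure D3:**
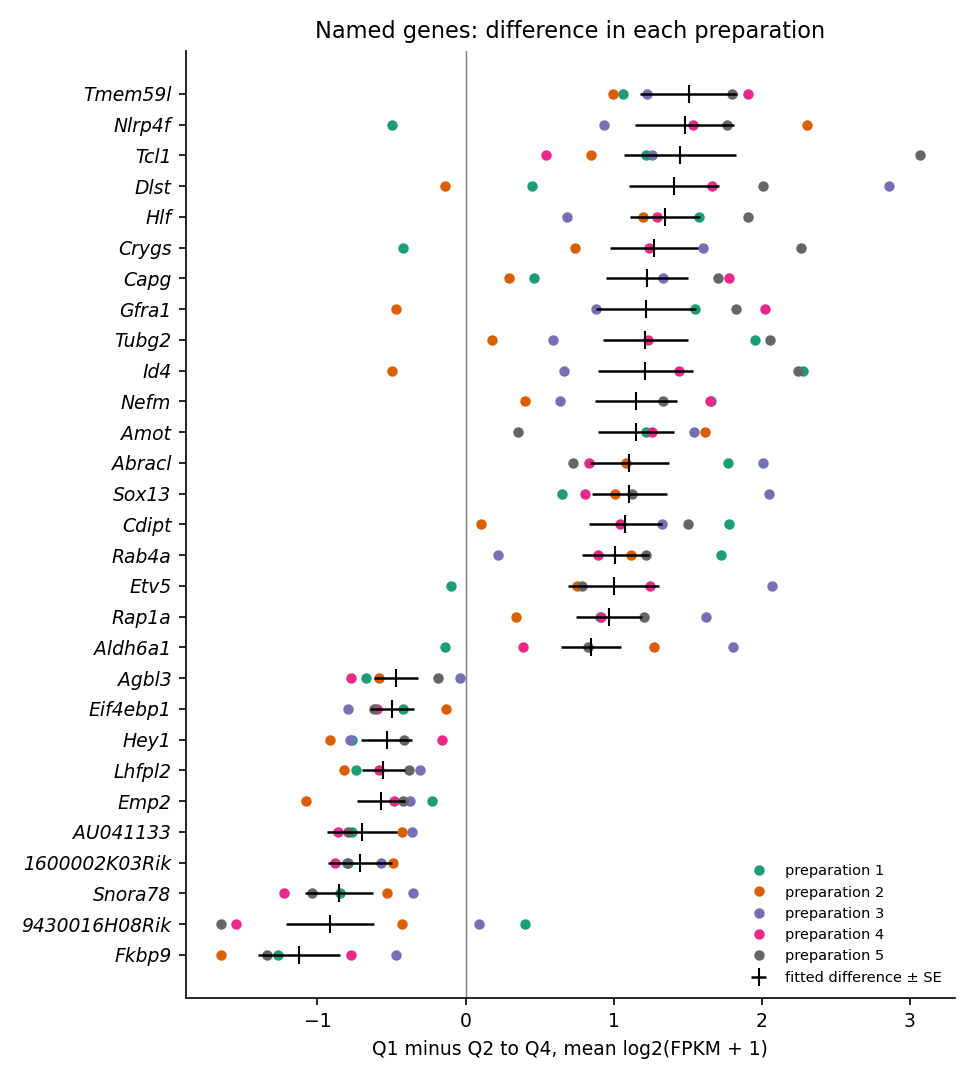
Difference between Q1 and Q2 to Q4 in mean log2(FPKM + 1) (x axis) for the 5 markers and the 15 higher and 10 lower genes with the smallest p (y axis); coloured points are single preparations and black bars the fitted difference ± SE. Points of preparation 2 lie below 0 for Id4, Gfra1 and Dlst, and no gene shown passed the adjusted threshold.

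The most abundant genes hardly distinguished bright cells. The 25 genes with the highest Q1 mean took 9.45 ± 0.61% of a cell's summed FPKM in Q1 and 9.39 ± 0.65% in the background (SD, n = 5), and 23 of them were also among the 25 highest of the background. Ptges3, the p23 co-chaperone of HSP90, led with 3747, 2441, 3344, 3652 and 3586 FPKM over the 5 preparations, and its background means were 3629, 2286, 2694, 3574 and 3215. Cox6a1, a subunit of cytochrome c oxidase, had nearly the same mean, 3312 ± 1943 FPKM, but ranged from 1026 in preparation 3 to 6292 in preparation 1. The background showed the same range, from 948 to 6035 in those preparations. Rpl41, Ubb, Actb, Mt1, Sod1 and 2010107E04Rik lay between 2995 and 1999 FPKM. Dazl, an RNA-binding protein of the germ line, was the 13th most abundant gene and varied little, at 1961, 1727, 1712, 1679 and 1727 FPKM in Q1. Others of the 25 were Cox4i1, Rpl4, Sdc4, Calm2, Mir703, Eef1a1, Mdh2, Rpl8, Prdx1, Fth1, Hsp90ab1, Psmb2 and Ndufb9. Mir703, a short microRNA feature, was in only 23% of Q1 cells and in none of preparation 1, with a median of 6315 FPKM where detected, so its rank reflects few very high values. Ribosomal protein genes together held 5.09 ± 0.57% of summed FPKM in Q1 and 5.26 ± 0.56% in the background, and respiratory chain genes 6.54 ± 0.48% and 6.62 ± 0.52%.

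**Figure D4:**
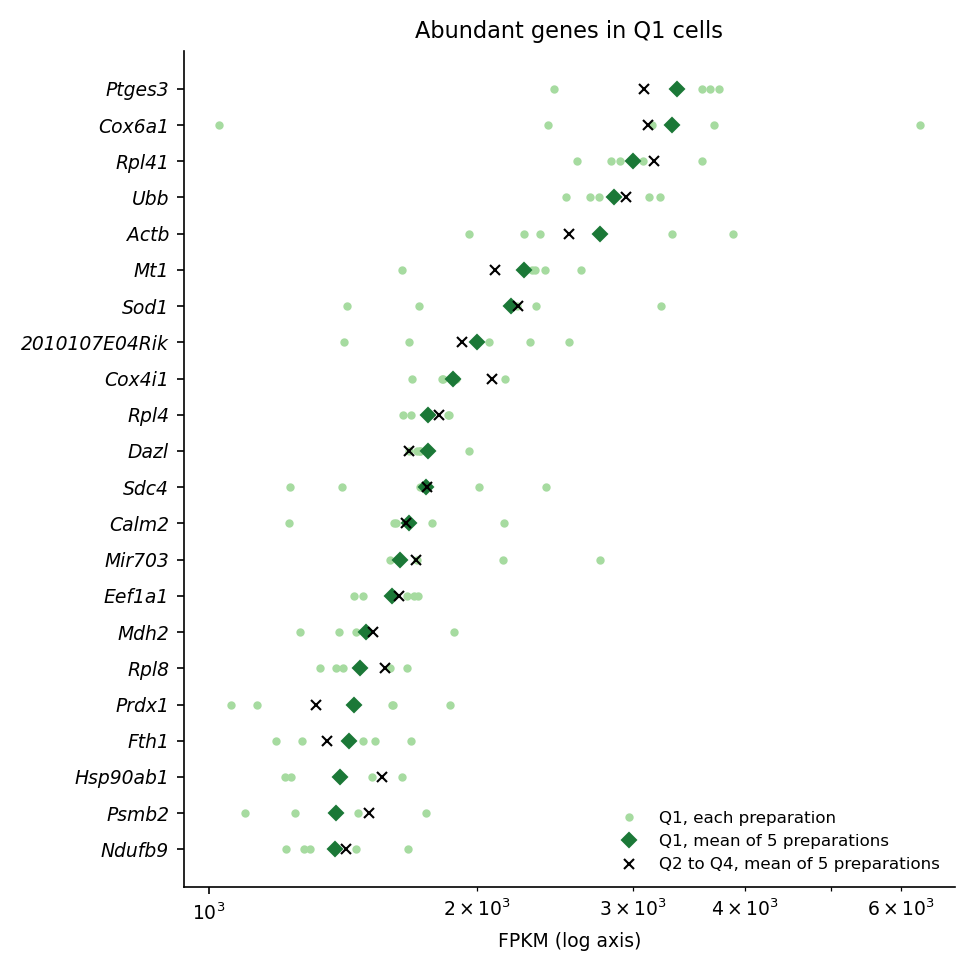
Mean FPKM (log axis) of 22 of the 25 most abundant genes in Q1 (y axis); pale green points are the Q1 means of single preparations, diamonds the mean of the 5 and crosses the mean of Q2 to Q4 (Mir703 was at 0 in preparation 1 and that point is not drawn). Diamonds and crosses lie close together, and Cox6a1 has the widest range, 1026 to 6292.

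Detection followed a broad gradient. Of 23354 genes in the matrix, 731 were detected in every Q1 cell, 2191 in at least 90%, 8377 in 10% to under 90%, 4503 in fewer, and 8283 in none. In the background 1958 genes were in at least 90% of cells, and 1873 genes met that share in both. The counts in every cell and in none depend on the number of cells and were not compared. A set of 418 genes was detected in 30% to 70% of Q1 cells in each of the 5 preparations. Those with the highest median FPKM in the Q1 cells that had them were 1300002E11Rik, Acn9, Gngt2, Mgst3, Zfp35, Pts, Surf2, Echs1, Yif1a and Dhrs3. The long non-coding RNA 1300002E11Rik was in 59.5% of Q1 cells (45.5% to 70% by preparation), with a median of 102 FPKM in those cells, and in 57.8% of the others. It shares exonic sequence with Map3k13 on the same strand, so its value is uncertain. Acn9, an assembly factor of succinate dehydrogenase, was in 48.6% of Q1 cells with a median of 70.6 FPKM where detected, and Mgst3, a glutathione transferase, in 60.8% with 56.9 FPKM. Pts, an enzyme of tetrahydrobiopterin synthesis, was in 52.7% of Q1 and 52.5% of other cells. Dhrs3, a retinal reductase, was in 36.5% with 43.1 FPKM. Of the 418, 74 were also among the 469 genes that met the same criterion in the background, or 17.7% and 15.8% of the 2 sets, which had different numbers of cells per preparation.

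Q1 cells resembled each other little more than the cells of other quartiles did. The mean correlation of log2 profiles between Q1 cells of 1 preparation was 0.643, 0.613, 0.517, 0.590 and 0.573, and between cells within each other quartile 0.631, 0.604, 0.461, 0.586 and 0.576. The difference was 0.015 ± 0.023 (SD), higher in 4 of 5 preparations, with an exact sign-flip p of 0.125 (two-sided), and it was 0.0054 without preparation 3. Q1 cells correlated with each other by 0.0086 ± 0.012 more than with cells of the other quartiles, in 5 of 5 preparations (exact p = 0.063, two-sided), by 0.0297 in preparation 3 and 0.0011 to 0.0061 in the others. Between preparations, Q1 cells correlated at 0.537 to 0.624 over the 10 pairs of preparations. Preparation 3 had the lowest values and also the fewest detected genes.

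Preparation explained little of the variation of a typical gene among Q1 cells. The share of the variance of log2(FPKM + 1) that lay between preparations had a median of 6.83% over the tested genes, against 5.48% for 74 cells in 5 groups that share 1 mean. Only 4 genes had a share above 50%: Cox6a1 (54.4%), Sod1 (53.9%), Ywhaz (51.3%) and Wtap (51.3%). Sod1, superoxide dismutase, ran from 1430 in preparation 1 to 3221 FPKM in preparation 4 in Q1, and from 1462 to 3263 in the background. Wtap, a subunit of the RNA methyltransferase complex, ran from 112 in preparation 1 to 789 in preparation 3, and from 95.4 to 715 in the background.

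Among the 2191 genes in at least 90% of Q1 cells, the spread between cells of 1 preparation fell with the mean level from about the middle of the range upward. A few genes stood off the trend. Med21, a Mediator subunit, had an SD of 2.60 on the log2 scale, with cells from 0 to 1249 FPKM around a median of 231. Hist1h4d, a replication-dependent histone H4 gene whose main transcripts lack polyA tails, had an SD of 2.39 and a mean of 125 FPKM in preparation 3 against 352 to 505 in the others. Enc1 (SD 2.41), Vbp1 (2.61) and Tex12 (1.95), a synaptonemal complex gene, also varied widely, with cells at 0 and maxima of 818, 1059 and 2061 FPKM. The 5 least variable for their level were Gm6548, Rpl3, Rpl18, Gapdh and Fau, with SDs of 0.48 to 0.64. Gm6548 is a processed pseudogene and the other 4 have many near-identical copies in the genome, between which reads may be split, so the low levels of these genes (33.1 to 51.8 FPKM) are uncertain. Tcl1 had an SD of 2.55 and Etv5 of 1.82.

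**Figure D5:**
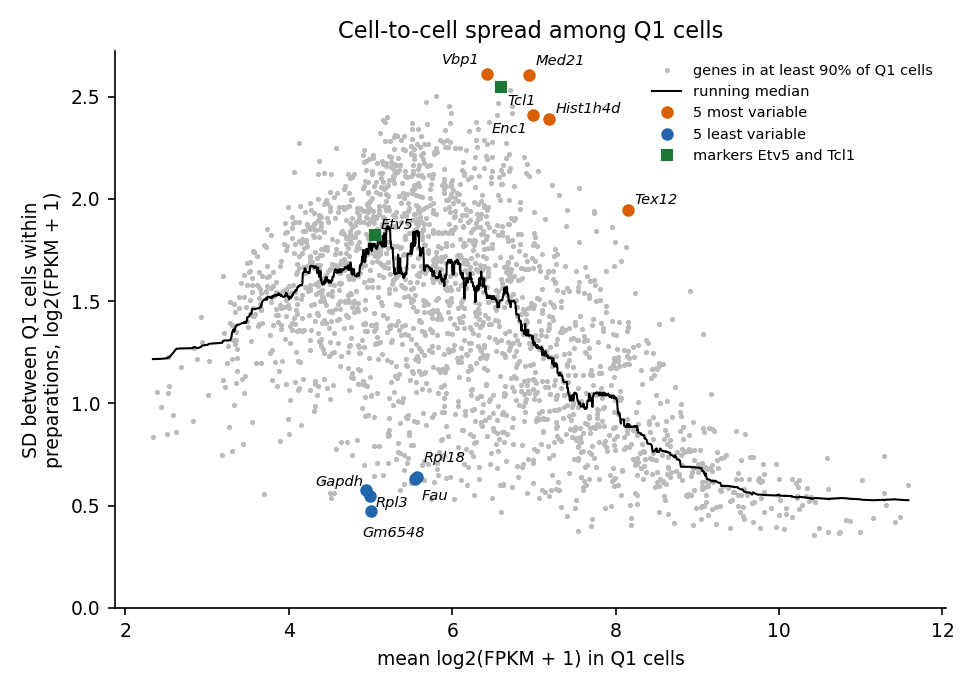
Within-preparation SD of log2(FPKM + 1) between Q1 cells (y axis) against the mean (x axis) for the 2191 genes in at least 90% of Q1 cells; the line is the running median over genes of similar mean, and coloured points are the 5 most and 5 least variable genes for their level and the markers Etv5 and Tcl1. SDs fall from about the middle of the range to the most abundant genes, and Tcl1 lies far above the line.

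The spread between cells was also compared between Q1 and the background, quartile by quartile. limma called 0 of 10452 genes (0%) at an adjusted p under 0.05, and the smallest adjusted p was 0.399. At unadjusted p under 0.05 the spread was larger in Q1 for 184 genes (1.76%) and smaller for 343 (3.28%), and 54.9% of genes had a smaller spread in Q1. The 5 genes with the smallest p in each direction were Nr2c1, Llgl2, Spaca1, Aldh6a1 and Abcc3 (larger) and Lhfpl2, Emp2, Hey1, Tmem44 and Mina (smaller). Nr2c1, an orphan nuclear receptor, had a mean SD within preparations and quartiles of 1.60 in Q1 and 0.88 in the background. It was in 25.7% and 9.3% of cells. Mina, a ribosomal oxygenase, had nearly equal means (118 ± 17.8 and 118 ± 6.07 FPKM) with SDs of 1.51 and 2.19, smaller in Q1 in 5 of 5 preparations (limma adjusted p 0.784). Apart from Mina, these genes were in 4.05% to 27% of Q1 cells, where the SD of log2 values moves with the share of cells detected. Among the markers, Etv5 and Tcl1 had smaller spreads in Q1 (by 0.57 ± 0.22 and 0.41 ± 0.17) and Id4 a larger one (by 0.56 ± 0.24), each with a limma adjusted p of 0.962.

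Gene lists summed the same variation per cell. The mean log2 level over the genes of a list had an SD between Q1 cells within preparations of 0.95 for the differentiating list, 0.77 for G2/M, 0.59 for the stem cell list and 0.29 for ribosomal proteins. In the background these SDs were 0.94, 0.83, 0.74 and 0.27. Of the 29 stem cell associated genes a Q1 cell had 8 to 22 detected (median 16), and another cell 2 to 23 (median 13.5). Across Q1 cells the G2/M level correlated with the number of detected genes with r = 0.70, the differentiating level with 0.53 and the stem cell level with 0.11, given as a description because these share the same libraries.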

How the data were processed

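Per the labels' protocols, single cells were captured on Fluidigm C1 chips, imaged, and made into libraries from polyA RNA with SMARTer and Nextera chemistry; wells with dead cells, multiplets or debris had been left out. The authors' deposited matrix holds FPKM for 23354 genes in 278 cells, the unit being read from the values and from the quantifier. The submitters' processing notes name TopHat, Cufflinks, Picard and FastQC and the build mm10/GRCm38, with no role for each, and the annotation, versions and settings used were not found in these sources. One passage of the protocols numbers the dim quartile differently from the design text, whose order was followed.

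Depth was inferred from the step size of low values in 2110 genes with 1 transcript of at least 1500 bases. It was 203166 to 1279242 fragments per cell (Q1 median 609129, other cells 623297), and if values were rescaled it is an effective depth.

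Cells were not treated as replicates. The mean of log2(FPKM + 1) over cells was taken in each quartile of each preparation (20 means), for genes that reached an FPKM of 1 in 10% of cells or more. A pseudocount of 1 understates differences of low genes. These means, and in a second fit the SDs between cells, were fitted in limma 3.58.1 (R 4.3.3), weighted by cells, with preparation as a block and 12 residual degrees of freedom. Q1 was contrasted with the mean of Q2, Q3 and Q4, and p-values were adjusted by Benjamini-Hochberg over all genes with a threshold of 0.05. The preparation numbers are the run numbers in the sample titles and were taken to mark shared cell suspensions. In 30 within-preparation pairs the median correlation of deviations was 0.19 (lowest 0.076). This cannot tell a shared suspension from a shared chip, library batch or sequencing run. Values per cell were compared by exact sign-flip tests over the 5 preparations. Limma p-values rest on how far the means or SDs of all 4 quartiles stray from the fitted quartile and preparation levels. The variance of a gene is there drawn toward that of genes of similar level. Sign-flip p-values rest on the spread of the 5 within-preparation differences. Both speak only for these preparations. The fits were tested on simulated data.

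The members, markers and gene lists were chosen with earlier results of these data known. Named genes were the 5 markers, the 15 higher and 10 lower genes with the smallest p, the 25 most abundant, 10 with intermediate detection in every preparation, 5 most and 5 least variable for their level, and 5 with the smallest p in each direction for spread; a few of these genes are not reported here. List members at unadjusted p under 0.05, Eomes, and the genes with large shares of variance between preparations were named after their values were seen. Coordinates came from GENCODE M21, in which 76 of 80 named genes were found. Alternatives were other pseudocounts, filters, scalings and detection limits, fits without the block or with detected genes as a covariate, other pooling, and leaving out each preparation.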

Additional observations from a re-analysis of the deposited data

Results flagged for a closer look

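In 5 of 68 sets of 5 preparation values examined, 1 preparation stood apart from the other 4 by more than Dixon's 95% limit; chance flags about 1 in 20 such sets. Preparation 3 had the largest excess of detected genes per cell in Q1, 744 against 125 to 223 elsewhere. It also had the largest difference in correlation between cells, 0.056, and the largest excess of the correlation among Q1 cells over that with other cells, 0.0297. For Tcl1, preparation 5 had a log2 difference of 3.07. Dazl averaged 1961 FPKM in Q1 of preparation 1.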

How the results depend on the processing

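Of 342 values of the 29 named genes under alternatives, 0 changed sign and 5 passed the adjusted threshold that the reported fit did not: Hlf after scaling to a common 75th percentile, with the covariate, and without preparation 3, and Dlst and Id4 without preparation 2. The genes besides the markers were picked for small p in the reported fit to the same cells. Their unchanged signs are therefore not independent evidence. Genes called for the mean numbered 0 as reported, 2 without the filter on low values (Eomes and Rln1), 1 after scaling and 1 with detected genes as a covariate; leaving out a preparation gave 0 to 2. For the spread, 1 gene was called without the filter (Rln1). Genes higher at unadjusted p under 0.05 (616 as reported) numbered 986 without the filter and 331 with the covariate, and genes lower (130) numbered 76 after scaling, 282 with the covariate and 103 to 227 without single preparations. Larger spreads (184) numbered 656 without the filter and 88 with a filter at 25% of cells, and smaller spreads (343) 168 with the covariate. Without the replicate block, the paired structure was ignored: 0 genes were called for the mean and 0 for the spread, 298 were higher and 50 lower at unadjusted p under 0.05, and 113 had larger and 134 smaller spreads. The causes of these shifts were not tested, apart from the larger number of genes tested without the filter (17107). Detected genes, markers per cell and similarity kept their sign under every alternative run. With 5 preparations, exact tests cannot go below 0.063, so they cannot pass 0.05.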
